A study of Mus musculus with 4 samples.

Results

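The 10 genes described here encode proteins that make and load peptides for MHC class I in thymic stromal cells: H2-K1, H2-D1, B2m, Psmb8, Psmb9, Psmb10, Tap1, Tap2, Tapbp and Nlrc5. They were chosen by name, as the rows carrying these symbols in the cell matrices of all 4 libraries, and all 10 were found among 32285 features. No measured value entered that choice. The libraries came from C57BL/6 mice aged 6 months that were left untreated. The 2 WT libraries, called mock in the labels, were from wild-type mice and the 2 Z/Z libraries from mice homozygous for Foxn1 LacZ, a hypomorphic allele of the transcription factor that drives thymic epithelial cells (TECs). Thymi of several mice were pooled into each library, and CD45-positive cells were depleted on beads before sorting, so a library is a pool and not an animal. Male sex is given in the sample characteristics and female in the protocol, and nothing here depends on which is right. The comparison asks how the antigen presentation genes of the stroma differ when Foxn1 is reduced.

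MHC class I molecules show peptides from a cell's own proteins to CD8+ T cells. H2-K1 and H2-D1 encode the heavy chains of the classical molecules and B2m the light chain that both need to reach the surface. Psmb8, Psmb9 and Psmb10 encode the catalytic subunits of the immunoproteasome, which take the places of Psmb5, Psmb6 and Psmb7 of the constitutive proteasome. In cortical TECs the subunit encoded by Psmb11 takes the place of Psmb8 in the thymoproteasome, which is needed for normal selection of CD8+ T cells. Tap1 and Tap2 form the pump that carries peptides into the endoplasmic reticulum, Tapbp (tapasin) holds empty class I molecules at that pump, and Nlrc5 encodes the transactivator of class I genes. Most of these genes respond to interferon.

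Of the members, 7 lie on chromosome 17 in or beside the MHC of the mouse. On the mm10 assembly with GENCODE vM21, these were Tapbp (chr17:33915899-33929292), H2-K1 (chr17:33996017-34000347), Psmb9 (chr17:34181987-34187764), Tap1 (chr17:34187553-34197225), Psmb8 (chr17:34197721-34201454), Tap2 (chr17:34203527-34216321) and H2-D1 (chr17:35262730-35267499). B2m lies at chr2:122147686-122153083, Nlrc5 at chr8:94434356-94527272 and Psmb10 at chr8:105935735-105938444. Psmb9 and Tap1 are transcribed away from each other, and their RefSeq start sites are 226 bases apart. Foxn1 lies at chr11:78357577-78386558. H2-K1, H2-D1 and the H2-Q genes are alike in sequence, so the authors' counting may have lost or shared reads among them and each value of these genes is less certain than that of B2m. An annotated transcript of Patl2 crosses B2m on the other strand, and Psmb9 and Tap1 overlap at their starts on opposite strands.

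The stretches before the start sites of B2m and H2-K1 are shown because these genes are partners in 1 molecule and differed in how their levels moved between genotypes, as given further on. Each runs from 170 to 2 bases before the RefSeq start site on GRCm38.p6, 5′ to 3′ on the strand of the gene. Capitals mark, in order, an IRF core (AANNGAAA or its reverse complement), the X2 letters TGACG and the CCAAT letters or their reverse complement.

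B2m (chr2:122147517-122147685, + strand): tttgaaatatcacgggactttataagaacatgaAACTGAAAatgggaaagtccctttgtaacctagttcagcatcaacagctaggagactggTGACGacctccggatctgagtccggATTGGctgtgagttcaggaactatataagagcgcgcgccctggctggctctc
H2-K1 (chr17:34000349-34000517, - strand): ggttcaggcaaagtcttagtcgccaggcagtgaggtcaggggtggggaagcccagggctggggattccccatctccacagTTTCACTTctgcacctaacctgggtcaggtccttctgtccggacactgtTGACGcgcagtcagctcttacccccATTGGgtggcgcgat

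Both stretches hold the motifs in the same order. The IRF core, the X2 letters and the CCAAT letters began 137, 78 and 53 bases before the start of B2m and 90, 41 and 16 bases before that of H2-K1. For H2-K1 this is the RefSeq start at chr17:34000347. From its other RefSeq start, at chr17:34000333, the IRF core and X2 letters began 104 and 55 bases before. There were 2 CCAAT matches before that start, the nearest at 6 bases. RefSeq promoters were at hand for 8 of the 10 members, Tap2 and Nlrc5 being the others. In the 250 bases before the start, on either strand, the IRF core was found in 3 of these 8 (B2m, H2-K1 and H2-D1), the X2 letters in 5 and the CCAAT letters in 6. X2 and CCAAT letters were found together in 5, which were B2m, H2-K1, H2-D1, Psmb9 and Tap1. The windows of Psmb9 and Tap1 overlap, and the X2 and CCAAT letters found there are the same bases, counted under each gene. Among 32851 RefSeq promoters, 21.3% held the IRF core, 17.8% the X2 letters, 33.8% the CCAAT letters, 6.12% both of the latter and 1.08% all of them. These are matches of letters only.

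The 4 libraries held 13981 called cells, of which 9843 were kept, and 8468086 to 50705511 unique molecular identifiers (UMIs, the counted transcripts). WT 2 was the smallest, with 455 kept cells. WT 1 and WT 2 shared 202 called barcodes, 16.9% of the smaller library, and Z/Z 1 and Z/Z 2 shared 249 (5.53%), against 0 to 6 between genotypes. The tests treat the libraries of a genotype as independent, and whether they are was not tested. Clusters with TEC markers held 557, 104, 1954 and 1544 cells in WT 1, WT 2, Z/Z 1 and Z/Z 2, those with fibroblast (FB) markers 597, 191, 1153 and 725, and those with endothelial (EC) markers 109, 25, 697 and 672. Members and all list genes were left out of the clustering. Although the sort was for CD45-negative cells, 169 kept cells formed a cluster with thymocyte markers and 80 a cluster with B cell markers, and these were set aside. Foxn1 in summed TECs was 85.8 and 119.8 CPM (UMI counts of a gene scaled to a common total) in WT 1 and WT 2 and 54.3 and 71.7 in Z/Z 1 and Z/Z 2, lower in both mutants, the log2 difference being -0.70 ± 0.23 (SE; edgeR adjusted p = 0.0831).

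Endothelial cells stood out among the 3 large lineages. In the same libraries they held more Nlrc5, Tap1 and Tap2 transcript than TECs or fibroblasts did, and fibroblasts held the least Psmb8 and Psmb9 in every library. On a TMM scale common to all sums, Nlrc5 in endothelial cells was 276, 265, 269.8 and 292 CPM in WT 1, WT 2, Z/Z 1 and Z/Z 2. In TECs it was 137, 143, 101 and 98.1, and in fibroblasts 73.0, 104, 81.7 and 59.8, so that the endothelial values lay above all others in both genotypes. The endothelial to fibroblast difference was a log2 of 1.84 ± 0.18 (edgeR adjusted p = 1.34e-05) and the endothelial to TEC difference 1.25 ± 0.18 (adjusted p = 0.000159), in a fit with the library as a block.

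The transporter followed the same order. Tap1 was 137, 93.1, 108 and 173 CPM in endothelial cells, 71.5, 71.3, 87.1 and 120.3 in TECs and 41.1, 35.6, 47.4 and 49.7 in fibroblasts. Fibroblast values were the lowest in every library, and the endothelial value was the highest within each. Tap1 was higher in endothelial cells than in fibroblasts by a log2 of 1.54 ± 0.16 (adjusted p = 2.49e-05) and than in TECs by 0.56 ± 0.16 (adjusted p = 0.0136). Tap2, its partner in the pump, was 163, 132, 140.1 and 133 CPM in endothelial cells, 82.9, 85.7, 76.6 and 75.8 in TECs and 62.2, 70.4, 63.3 and 53.5 in fibroblasts. These groups did not overlap, and the endothelial level was above that of fibroblasts by a log2 of 1.21 ± 0.14 (adjusted p = 4.20e-05) and above that of TECs by 0.84 ± 0.14 (adjusted p = 0.000421).

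Psmb9 set fibroblasts apart from the other lineages. It was 42.6, 35.9, 43.3 and 37.0 CPM in fibroblasts, 96.6, 58.8, 109 and 126 in endothelial cells and 186, 167, 97.4 and 126 in TECs. Fibroblasts were below TECs by a log2 difference of -1.84 ± 0.24 (adjusted p = 7.89e-05) and below endothelial cells, where the difference was 1.37 ± 0.25 (adjusted p = 0.00113). Averaged over the genotypes, endothelial cells and TECs did not pass the test for Psmb9 (-0.47 ± 0.24, adjusted p = 0.131), Psmb8 (0.46 ± 0.26, adjusted p = 0.173) or Psmb10 (-0.67 ± 0.38, adjusted p = 0.164). Their order in Psmb8 and Psmb10 turned with the genotype. Psmb10 was 275 and 230 in WT TECs against 95.4 and 49.0 in WT endothelial cells, and 87.0 and 166 against 127 and 180.0 in Z/Z. Psmb8 was 229 and 218 against 214 and 152 in WT, and 126 and 173 against 276 and 384 in Z/Z. Psmb9 was higher in TECs in WT, with 97.4 and 126 against 109 and 126 in Z/Z. Psmb8 was higher in endothelial cells than in fibroblasts by 1.28 ± 0.26 (adjusted p = 0.00259). Psmb10 in fibroblasts, at 62.1 to 103 CPM, overlapped the endothelial range of 49.0 to 180.0.

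Averaged over the genotypes, the class I chains differed less between lineages. H2-D1 was higher in endothelial cells than in TECs (0.75 ± 0.20, adjusted p = 0.0108), and Tapbp was higher there by 0.78 ± 0.16 (adjusted p = 0.00218). H2-K1 and B2m passed the test in none of the 3 pairs. B2m differed by a log2 of 0.32 ± 0.29 between endothelial cells and TECs and 0.03 ± 0.29 between fibroblasts and TECs, with adjusted p of 0.391 and 0.943. The order in B2m turned with the genotype, so these averages hide differences within each. In WT, TECs (2932 and 3100.1 CPM) lay above fibroblasts (2057 and 2332) and endothelial cells (2546 and 2136). In Z/Z, TECs (985 and 1066) lay below fibroblasts (1825 and 1363) and endothelial cells (2138 and 2140). In all, 5 of 10 members were higher and 0 lower in endothelial cells than in fibroblasts, where 19.3% and 20.5% of 15457 tested genes were. Against TECs, 5 members were higher and 0 lower in endothelial cells, beside 21.3% and 27.9% of all genes. Between fibroblasts and TECs, 6 members were lower (Psmb9, Tap1, Psmb10, Psmb8, Nlrc5 and Tap2) and 1 was higher (Tapbp, 0.52 ± 0.16), beside 29.9% and 24.5% of all genes. Without WT 1 only 2 of these 7 members passed, and without WT 2 or Z/Z 2 only 4. Without Z/Z 2, 3 members passed between endothelial cells and TECs, with H2-D1 and Tap1 no longer past the threshold. H2-D1 was also lost there without Z/Z 1, and Tap1 without WT 1. With cells thinned to 2000 UMIs each, Tap1 did not pass there either (0.40, adjusted p = 0.19).

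**Figure D1:**
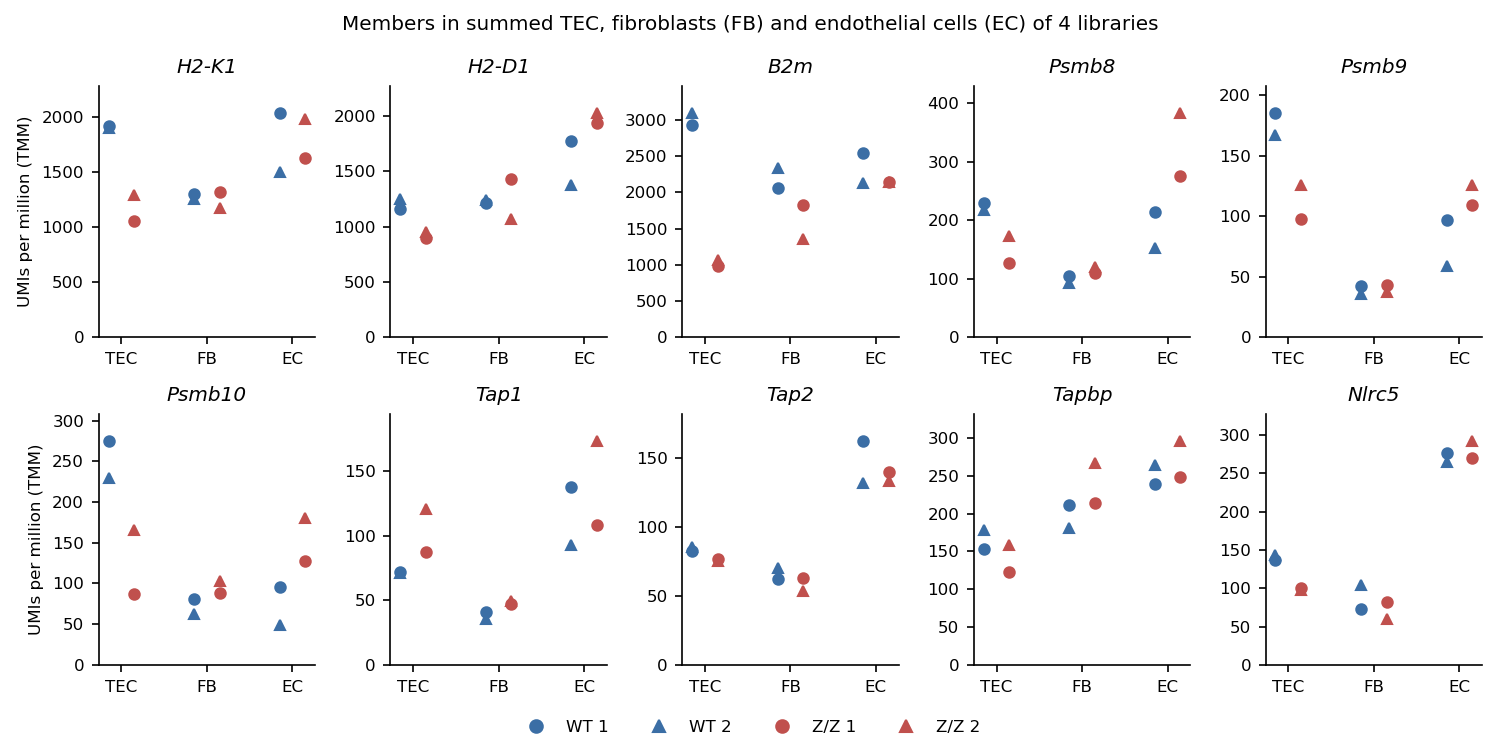
Level of each member (CPM, TMM scale common to all sums) in summed TECs, fibroblasts (FB) and endothelial cells (EC), 1 point per library, WT in blue and Z/Z in red, circles for replicate 1 and triangles for replicate 2. Nlrc5 lies at 265 to 292 in EC in all 4 libraries, and B2m in TECs lies at 2932 and 3100.1 in WT and at 985 and 1066 in Z/Z.

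Within the lineages the members marked different clusters. Levels in this description are plain CPM of a cluster, averaged over libraries with at least 5 cells, and no test was run because clusters are built from the same cells. Cluster 16, with the cTEC markers Psmb11, Prss16 and Ccl25 among its leading genes, was the highest of the clusters in Psmb9 (mean 468, library range 326 to 654), Psmb10 (455, 234 to 666) and Tap1 (157, 115 to 203). The next cluster in Psmb9 was cluster 8 at 154, whose range of 99.2 to 225 lay below that of cluster 16. The order in Tap1 rested on WT 2, where cluster 13 (venous endothelial cells) had 0 UMIs in 5 cells. In WT 1, Z/Z 1 and Z/Z 2 cluster 13 was at 255, 142 and 189 in Tap1. Cluster 16 was lower in each of these libraries, at 115, 131 and 179. In Psmb8, which Psmb11 replaces in the thymoproteasome, cluster 16 was 8th of 22 clusters in the order, with a mean of 168. Psmb11 itself was 219 to 942 in cluster 16. It was 1.18 to 4.47 in cluster 10 apart from WT 2, where 24 UMIs in 11 cells gave 146.

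Cluster 8, called mTEC2-like from the markers Aire, Fezf2, Cd80, Cd40 and Tnfrsf11a, had the highest B2m of all clusters (3636, range 2564 to 4740.2). Its leading genes included Ccl20, a marker of microfold-like TECs, and none of the mTEC2 list. It is therefore compared between genotypes by its number and not as a named class, and the same holds for cluster 6 (aaTEC1-like), among whose leading genes was the basal and goblet marker Wfdc2. H2-K1 and H2-D1 had their highest means in cluster 18, a group of 130 fibroblasts led by Postn, at 2644 (2079 to 3186) and 2677 (1862 to 3685). The next cluster in H2-K1 was cluster 8 at 2507 (2022 to 2728). In H2-D1 it was cluster 11 (arterial cells) at 1819 (1641 to 2132). Both ranges overlapped that of cluster 18, of which WT 2 held 8 cells. Capsular fibroblasts (cluster 7, marked by Pi16 and Dpp4) held 618 of H2-K1, and the 624 contractile cells of cluster 5, led by Acta2 and Myh11, held the least: 229.7 of H2-K1, 257 of H2-D1 and 339 of B2m.

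Among endothelial cells, cluster 13, with the venous markers Selp, Ackr1 and Vwf, had the highest Nlrc5 of any cluster (437, range 381 to 504.2). Arterial cells (cluster 11) were at 177 to 190.1 and capillary cells (clusters 3 and 15) at 142 to 314, both below that range. Among epithelial clusters, cluster 2 (aaTEC2-like) reached 435 in WT 1, on 12 cells, and was 172 and 189 in Z/Z. The counts behind the venous value were small in WT 2, with 5 cells and 20 UMIs. Tap2 was highest in arterial cells, at 161, with a range of 142 to 196 that overlapped those of capillary and venous cells.

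**Figure D2:**
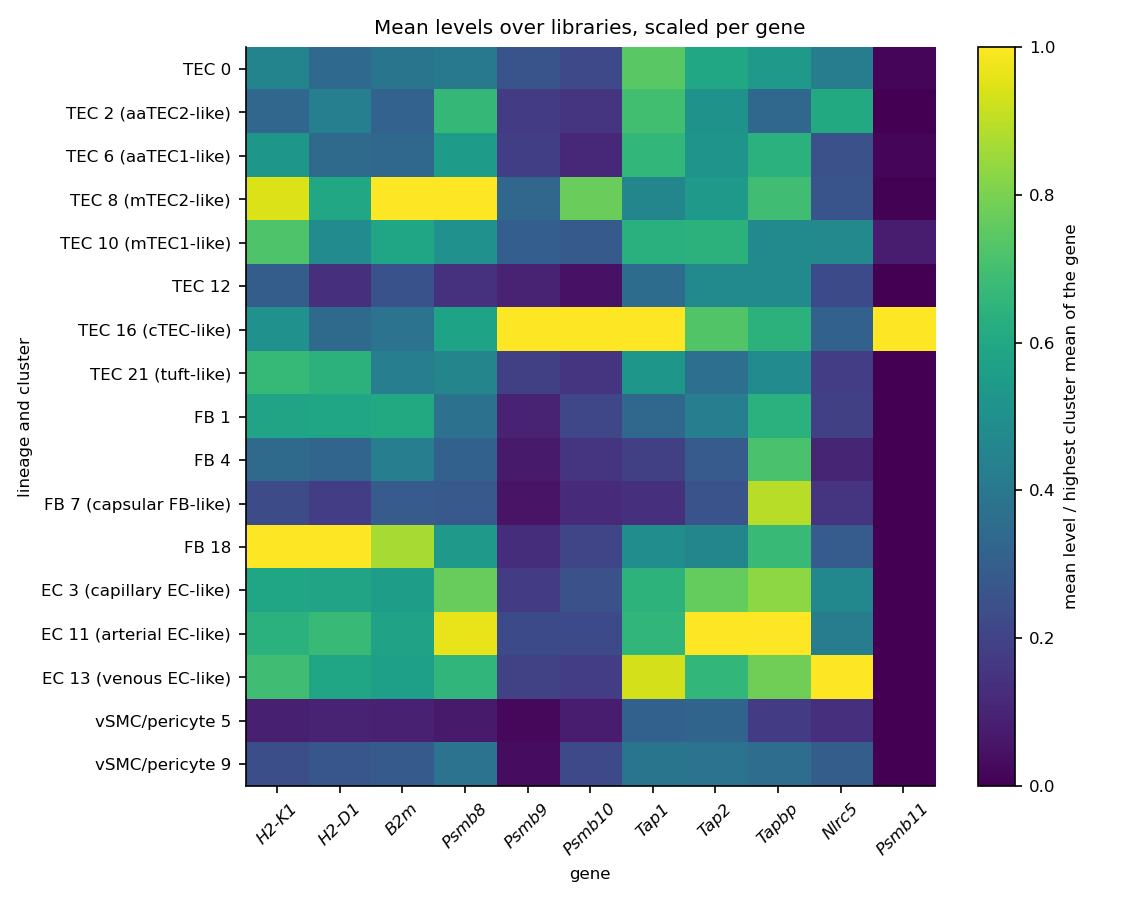
Mean level of each member and of Psmb11 in each cluster of 4 lineages that had at least 5 cells in 3 or more libraries, averaged over those libraries and divided by the highest cluster mean of that gene, so that 1 is the highest cluster plotted. Cluster 16 (cTEC-like) is the brightest for Psmb9, Psmb10, Tap1 and Psmb11, cluster 8 for B2m and, among the clusters plotted, for Psmb8, and cluster 5 (contractile cells) is dark for H2-K1, H2-D1 and B2m. For Tap1 the mean of cluster 13 includes a value of 0 from 5 WT 2 cells.

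In TECs, B2m was lower in Z/Z and was the only member to pass the test across all genes. Its TMM-scaled level was 3215 and 3539 CPM in WT 1 and WT 2 and 1172 and 1269.9 in Z/Z 1 and Z/Z 2, on 8829 to 41676 UMIs. Both mutant values lay far below both controls, 2.77-fold apart on average. The log2 fold change was -1.47 ± 0.17 (n = 2 libraries per group, edgeR adjusted p = 0.00850). Of 10 members 0 were called higher and 1 lower, where 10.5% and 12.1% of 18880 tested genes were called higher and lower. At an unadjusted p under 0.05 there were 7 members, beside 7306 of all 18880 tested genes. The median log2 fold change of all 10 members was -0.45, while that of all tested genes lay at 0.

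The heavy chains moved less than the light chain. H2-K1 was 2101 and 2170.0 CPM in the WT libraries and 1259 and 1537 in Z/Z, lower in both mutants, with a log2 fold change of -0.61 ± 0.18 and an adjusted p of 0.0615. H2-D1 was 1267 and 1428 against 1062 and 1131 (-0.30 ± 0.16, adjusted p = 0.227). The groups did not overlap for either gene, as was so for 68% of all tested genes in TECs, and neither passed the threshold. Within each library the ratio of B2m to H2-D1 UMIs was a log2 of 1.34 and 1.31 in WT against 0.14 and 0.17 in Z/Z. The ratio of B2m to H2-K1 was 0.61 and 0.71 in WT against -0.10 and -0.28 in Z/Z. The 4 values of each ratio separated the genotypes, and the exact permutation p was 0.33 in both cases, the smallest that 2 against 2 libraries can give. B2m to H2-D1 was also lower in Z/Z fibroblasts (0.77 and 0.91 in WT against 0.35 and 0.35). In endothelial cells it was 0.52 and 0.64 in WT against 0.14 and 0.08 in Z/Z. B2m to H2-K1 was lower in Z/Z fibroblasts (0.66 and 0.89 against 0.47 and 0.22) and overlapped in endothelial cells.

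The immunoproteasome genes were at lower values in Z/Z TECs without passing the test. Psmb8 was 251 and 249 CPM in WT against 150.2 and 205 in Z/Z (-0.49 ± 0.18, adjusted p = 0.111). Psmb9 was 203 and 191 in WT against 116 and 150.4 in Z/Z (-0.57 ± 0.17, adjusted p = 0.0657). Psmb10 was 302 and 262 in WT against 104 and 197 in Z/Z. The Z/Z libraries lay further from each other than Z/Z 2 lay from WT 2 for Psmb10, which had a log2 fold change of -0.91 ± 0.31 and an adjusted p of 0.0912. Without Z/Z 2 its change was -1.43 and passed, with an adjusted p of 0.0283.

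Tap1 went the other way from its neighbour Psmb9. It was 78.4 and 81.4 CPM in WT against 104 and 143 in Z/Z, higher in both mutants, with a log2 fold change of 0.63 ± 0.19 and an adjusted p of 0.0699. The log2 ratio of Psmb9 to Tap1 UMIs within a library was 1.38 and 1.23 in WT TECs and 0.16 and 0.07 in Z/Z, a mean difference of -1.19 (exact permutation p = 0.33, the smallest possible). Tap2 was 90.9 and 97.8 in WT against 91.1 and 90.3 in Z/Z, and Tapbp 167 and 203 against 146 and 189, both with overlapping groups. Nlrc5 was 149.9 and 163 in WT against 119.9 and 117 in Z/Z (-0.40 ± 0.13, adjusted p = 0.0805).

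Which members besides B2m passed depended on the method. DESeq2 called 4 (B2m, H2-K1, Psmb10 and Tap1), and sums of cells thinned to 2000 UMIs each gave 5 (B2m, H2-K1, Psmb8, Psmb9 and Psmb10). The share of all genes called in these settings is not given here, so these counts have no background beside them. B2m passed in 18 of 18 alternatives, at log2 values from -1.55 to -0.91 and adjusted p from 5.19e-19 to 0.0488. With barcodes called in more than 1 library kept only where they had the most UMIs, B2m was at -1.47 (adjusted p = 0.00874). Markers of blood cells moved with the genotype in the TEC sums. The 4 hematopoietic markers, none at 0, summed to 364 and 333 CPM in WT against 49.5 and 141 in Z/Z, led by Laptm5, and the 6 myeloid markers to 291 and 681 against 61.0 and 93.1, led by Lyz2. The 4 B cell markers, 1 of them at 0 in WT 2, summed to 19.3 and 25.5 against 4.33 and 7.81, and the 9 thymocyte markers to 147 and 74.5 against 32.5 and 128. The part of these cells in the TEC result was not tested.

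The makeup of the TEC sums also differed. Cluster 8, the cluster with the highest B2m, was 51.3% and 47.1% of TECs in WT 1 and WT 2 and 3.28% and 5.57% in Z/Z 1 and Z/Z 2. Cluster 2 (aaTEC2-like), in which 11.4% of cells held an Epcam UMI, was 2.15% and 0% of WT TECs and 28.1% and 24.5% of Z/Z TECs. Cluster 0, in which 91.4% of cells held an Epcam UMI and whose leading genes include Pth and Chga, both parathyroid markers, was 10.4% and 12.5% of WT TECs and 35.9% and 39.0% of Z/Z TECs. Median UMIs per TEC were 16692 and 18315.5 in WT against 6746.5 and 7023 in Z/Z. Without cluster 0, B2m was at -1.37 ± 0.19 (adjusted p = 0.0127). Without cluster 8, B2m was still lower in Z/Z, at a log2 of -0.91 ± 0.18 (adjusted p = 0.0488), while H2-K1 was at -0.35 (adjusted p = 0.328) and the signs of Psmb8 and Tapbp turned to 0.18 and 0.13.

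Within single clusters, B2m was lower in Z/Z in every epithelial cluster that could be compared. These were 7 clusters with at least 5 cells in each library. Cluster 16 (cTEC-like) was at 2212 and 2000.5 CPM in WT against 606 and 714 in Z/Z. Cluster 8 was at 4358 and 4740.2 in WT against 2564 and 2882 in Z/Z, and cluster 10 (mTEC1-like, led by Ccl21a, Krt14 and Krt5) at 2234 and 2652 against 2006 and 1689.9. In all 7 clusters both mutant values were below both controls, as was so for 0.209% of the 4314 genes with a mean of at least 50.0 CPM over these clusters. Cluster 2, absent from WT 2, was at 1206 in WT 1 and 1123 and 1096 in Z/Z. Some of these rest on few cells, with 5 WT 2 cells in cluster 16 and 6 in clusters 12 and 21. Both mutants also lay below both controls in fibroblast clusters 1, 4 and 7, endothelial clusters 3 and 11 and contractile cluster 5. Cluster 4 was at 1764 and 2068 in WT against 1307 and 1100 in Z/Z, and cluster 3 at 2272 and 2149 against 1823 and 1850. In fibroblast cluster 18 and endothelial cluster 13 the groups overlapped. The share of all genes for these clusters is not given here.

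When the 7 clusters were given equal weight, B2m was 2151 and 2362 CPM in WT against 1267 and 1234 in Z/Z, a log2 difference of -0.85 between the means. Nlrc5 on the same basis was 144 and 193 in WT against 89.8 and 103 in Z/Z (-0.80), with both mutants below both controls in 5 of 7 clusters, where 2.97% of those genes were so in at least 5. In cluster 16 it was 156 and 299.6 in WT against 38.5 and 49.8 in Z/Z. The difference of H2-K1 was -0.31 and that of Psmb9 -0.35, while Tap2 was at -0.39, Psmb10 at -0.03 and Psmb8 at -0.10. Tap1 was at 0.11. Tap1, Psmb10 and Psmb8 were each higher on average in Z/Z in 4 of 7 clusters, although the sums of all TECs were lower in Z/Z for Psmb10 and Psmb8. H2-K1 was below the controls in both mutants in 4 of 7 clusters, where 9.04% of those genes were so in at least 4, and in cluster 6 it was 1460.1 and 1150.4 in WT against 1297 and 1679.9 in Z/Z.

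**Figure D3:**
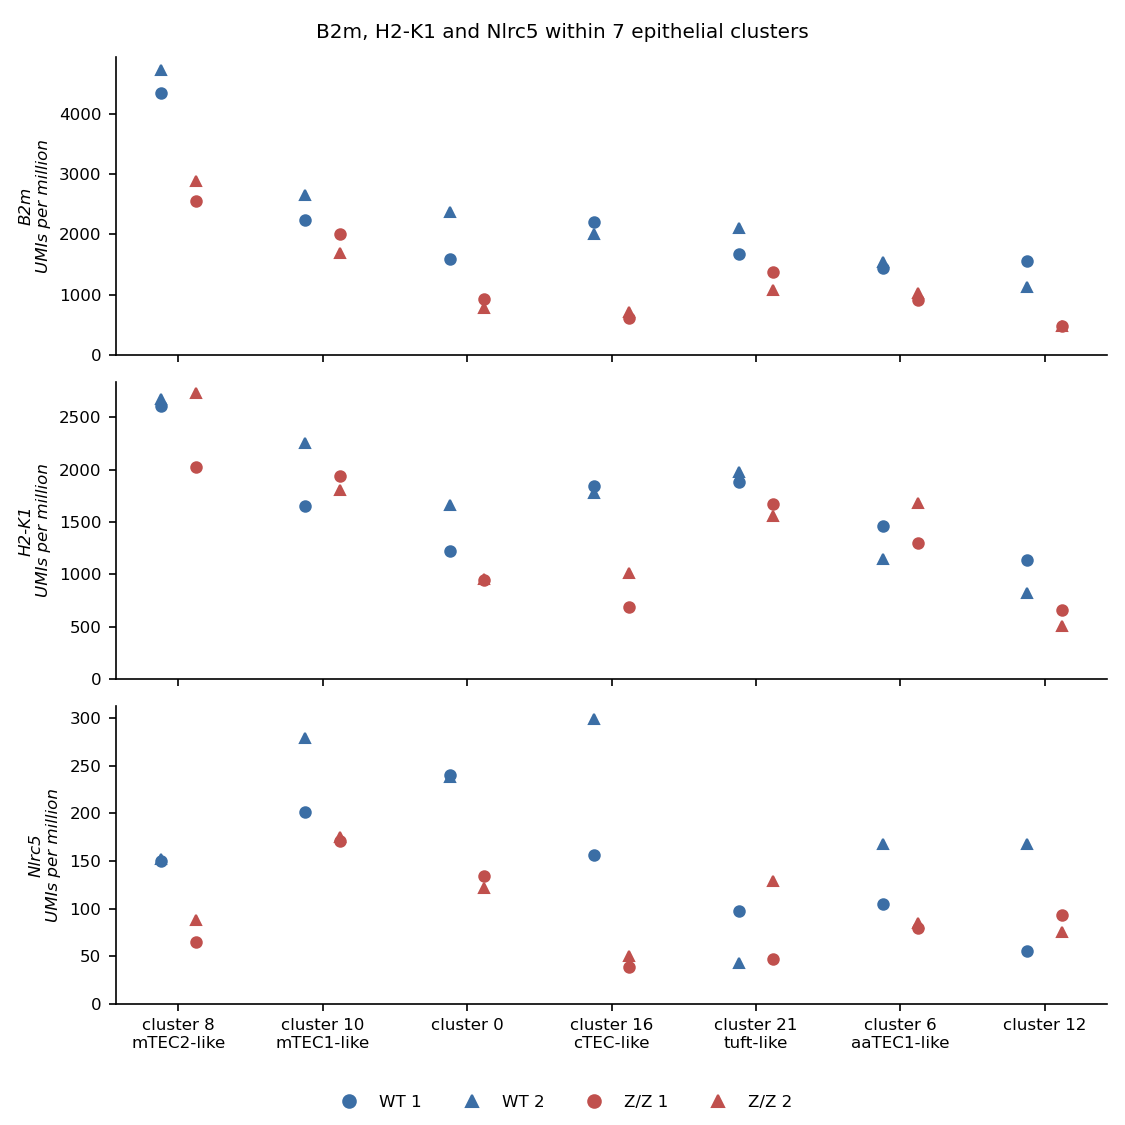
Levels of B2m, H2-K1 and Nlrc5 (CPM within a cluster) in the 7 epithelial clusters with at least 5 cells in every library, 1 point per library, WT in blue and Z/Z in red. For B2m the red points lie below the blue ones in each of the 7 clusters, for Nlrc5 in 5 and for H2-K1 in 4.

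Cluster 8 was the only epithelial cluster with at least 20 cells in every library (286, 49, 64 and 86), so it could carry a test. No member was called, with 1 gene of 12793 (0.00782%) higher and 0 (0%) lower. At an unadjusted p under 0.05 there were 3 members, B2m (-0.73 ± 0.15, adjusted p = 0.257), Nlrc5 (-0.97 ± 0.23, adjusted p = 0.282) and Psmb9 (-0.73 ± 0.27, adjusted p = 0.369). Among all 12793 tested genes, 1669 had an unadjusted p under 0.05. DESeq2 called 1 member there, B2m, at -0.74 with an adjusted p of 0.0180. H2-K1, at 2642 and 2716 CPM in WT against 2006 and 2855 in Z/Z, overlapped between genotypes.

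The exchange of catalytic subunits was followed as the log2 ratio of an immunoproteasome gene to the constitutive gene whose place it takes. In TECs the ratio of Psmb9 to Psmb6 was 0.53 and 0.63 in WT against -0.46 and -0.59 in Z/Z, so that the balance of counted transcripts turned from Psmb9 to Psmb6. Psmb6 itself was 141 and 123 CPM in WT against 159 and 226 in Z/Z (0.54 ± 0.21, adjusted p = 0.115). The ratio of Psmb8 to Psmb5 was 1.04 and 1.31 in WT TECs and 0.64 and 0.58 in Z/Z. Both ratios separated the genotypes without overlap (exact permutation p = 0.33, the smallest the design allows). The ratio of Psmb10 to Psmb7 overlapped, at 1.37 and 0.89 against 0.53 and 1.30.

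In endothelial cells Psmb10 to Psmb7 was -0.38 and -0.49 in WT against 0.55 and 0.95 in Z/Z, higher in both mutants by 1.19 on average. It rested on 82 and 10 Psmb10 UMIs in the WT libraries. In fibroblasts the same ratio was 0.24 and 0 in WT against 0.49 and 0.72 in Z/Z, also higher in both mutants. Psmb9 to Psmb6 in endothelial cells was 0.38 and -0.12 in WT against -0.26 and -0.37 in Z/Z, lower in both mutants as in TECs, while Psmb8 to Psmb5 overlapped (1.80 and 2.15 against 1.63 and 1.87). In fibroblasts Psmb9 to Psmb6 was -0.97 and -0.92 in WT against -1.30 and -1.81 in Z/Z, and these groups did not overlap either. Unlike in TECs, the log2 fold change of Psmb9 itself was not below 0, at 0.29 in endothelial cells and 0.02 in fibroblasts. Psmb6 was at 0.87 ± 0.25 and 0.62 ± 0.17 there. Neither gene passed the test in these lineages. Of the 9 subunit ratios, 7 did not overlap between genotypes, and with the B2m and Psmb9 to Tap1 ratios 15 of 18 did not. The levels of 68% of all tested genes in TECs, 50.8% in fibroblasts and 53.1% in endothelial cells did not overlap between genotypes, and the Benjamini-Hochberg adjusted p of each of those 15 exact permutation tests was 0.4.

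Outside the epithelium no member passed the test between genotypes. In fibroblasts 0 of 10 members were called by edgeR and 0 by DESeq2, where edgeR called 1.81% of 13859 genes higher and 1.31% lower. At an unadjusted p under 0.05 there were 2 members, B2m and Psmb10, beside 2517 of all 13859 genes. B2m was 1916 and 2189 CPM in WT fibroblasts and 1701 and 1270.2 in Z/Z (-0.47 ± 0.19, adjusted p = 0.237), and Psmb10 was 75.1 and 58.3 against 82.3 and 95.9 (0.40 ± 0.18, adjusted p = 0.271). H2-K1, H2-D1 and Psmb9 in fibroblasts were within 0.04 of 0 on the log2 scale, with SE of 0.16 to 0.19.

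In endothelial cells 0 of 10 members were called by edgeR and 0 by DESeq2, where edgeR called 1.09% of 11368 genes higher and 1% lower. The 2 members at an unadjusted p under 0.05, beside 2111 of all 11368 genes, were Psmb8 and Psmb10. Psmb8 was 202 and 159 CPM in WT against 238 and 329.7 in Z/Z (0.60 ± 0.24, adjusted p = 0.203), and Psmb10 90.1 and 51.4 against 109.9 and 155 (0.74 ± 0.28, adjusted p = 0.184). Both mutants lay above both controls for these genes, the opposite of their order in TECs. B2m was 2404 and 2243 in WT endothelial cells and 1847 and 1839 in Z/Z, lower in both mutants at -0.34 ± 0.20 (adjusted p = 0.383). WT 2 gave 25 endothelial cells.

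In the vessel wall cells (smooth muscle and pericytes) values only are given, since WT 2 held 11 of them. B2m was 453 and 599 CPM in WT against 488 and 412 in Z/Z, overlapping and below all sums of the other 3 lineages. H2-K1 was 251 and 243 in WT against 353 and 351 in Z/Z. These sums mix contractile cluster 5 with cluster 9. By cell number, cluster 9 gave 11.4% (WT 1), 27.3% (WT 2), 34.5% (Z/Z 1) and 24.2% (Z/Z 2). Over all its cells it held 1048 CPM of B2m and 667 of H2-K1, against 294 and 245 in cluster 5. Within cluster 5 alone B2m did not overlap, at 416 and 396 (WT) against 269 and 275 (Z/Z). H2-K1 there was 232 and 183 against 235 and 269. The part of makeup in the sums was not tested.

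The genotype effect itself differed between lineages for several members, as tested by the interaction of genotype and lineage. B2m fell in TECs, and the endothelial effect lay above that of TECs by a log2 of 1.42 ± 0.26 (adjusted p = 0.00879) and the fibroblast effect by 1.09 ± 0.26 (adjusted p = 0.0177). Psmb10 differed by 2.03 ± 0.30 between endothelial cells and TECs (adjusted p = 0.00332) and by 1.49 ± 0.26 between fibroblasts and TECs (adjusted p = 0.00290). Psmb8 differed by 1.39 ± 0.23 (adjusted p = 0.00552) and 0.83 ± 0.22 (adjusted p = 0.0245) in the same pairs, and Psmb9 by 1.18 ± 0.27 between endothelial cells and TECs (adjusted p = 0.0242). That is 4 of 10 members for endothelial cells against TECs, beside 7.69% of 15457 genes, and 3 of 10 for fibroblasts against TECs, beside 14%. Between endothelial cells and fibroblasts 0 members passed, where 0.265% of genes did. There 1 member, Psmb8, had an unadjusted p under 0.05, as had 1815 of all 15457 genes. The median difference over all genes was 0.24 between endothelial cells and TECs.

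Several of these calls rested on single libraries. Without Z/Z 1 only Psmb10 passed between endothelial cells and TECs (0 members between fibroblasts and TECs), and without WT 1 or Z/Z 2 only 2 members passed between endothelial cells and TECs. Without Z/Z 2, 1 member passed between fibroblasts and TECs. The sizes changed less than the calls, with B2m at 1.20 to 1.65 and Psmb10 at 1.79 to 2.53 between endothelial cells and TECs over all alternatives. The Psmb9 difference between endothelial cells and TECs no longer passed when any 1 of the 4 libraries, WT 2 included, was left out (adjusted p from 0.0788 to 0.21) or with free RNA subtracted (1.15, adjusted p = 0.0563). For Tap1, Tap2, Tapbp, Nlrc5, H2-K1 and H2-D1 no difference in effect between lineages passed the test with all libraries, and Tapbp passed between fibroblasts and TECs without WT 1 (0.76, adjusted p = 0.0375).

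**Figure D4:**
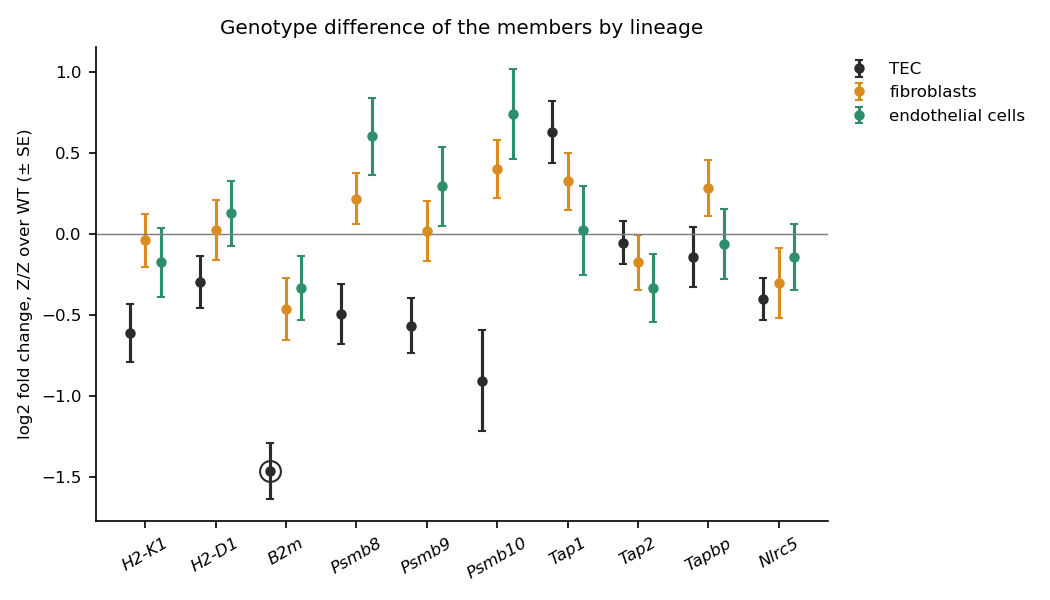
Log2 fold change of each member, Z/Z over WT, with its SE, in TECs (black), fibroblasts (orange) and endothelial cells (green). The ring marks the only difference past an adjusted p of 0.05, B2m in TECs at -1.47, and Psmb8 and Psmb10 lie below 0 in TECs and above 0 in endothelial cells.

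Other genes of the pathway were followed in lists. The activator of the proteasome, which opens its gate, is encoded by Psme1 and Psme2, and both were called lower in Z/Z TECs. Psme1 was 330.3 and 339 CPM in WT against 139.6 and 170.1 in Z/Z (-1.11 ± 0.15, adjusted p = 0.0111), and Psme2 305 and 300.2 against 128 and 154 (-1.10 ± 0.15, adjusted p = 0.0108). In cluster 8 alone they were at -0.23 each (adjusted p = 0.545 and 0.584). Of the 15 other class I and peptide loading genes, 4 were lower and 0 higher in Z/Z TECs: H2-Q10 (-2.42), H2-Q6 (-1.12), H2-Q7 (-1.27) and H2-M3 (-1.16), all coding for nonclassical class I chains. The median of that list was -0.25. H2-T23, the Qa-1 chain, was at -0.48 ± 0.22 (adjusted p = 0.177).

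Of the catalytic subunits outside the immunoproteasome, Psmb7 fell (-0.76 ± 0.16, adjusted p = 0.0280) and Psmb5 was at 0.06. Psmb11 was 131 and 37.7 CPM in WT TECs and 15.6 and 31.1 in Z/Z (-1.88 ± 0.62, adjusted p = 0.0824), with WT 2 close to the mutants. In cluster 16 it was 942 and 573 in WT against 219 and 249 in Z/Z. Among the 11 other core subunits of the proteasome, 3 were lower (Psma4, Psma6 and Psma1, -0.54 to -0.71) and 0 higher, with a median of -0.24.

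In Z/Z TECs 5 class II genes fell, while more interferon response genes rose than fell. Of the 10 class II genes, 5 were lower and 0 higher, among them Ctss (-1.94), H2-Oa (-2.29), H2-Aa (-0.91) and the class II transactivator Ciita (-1.13 ± 0.20, adjusted p = 0.0184). In cluster 8 alone 0 of 10 were called (0 at an unadjusted p under 0.05), with a median of 0.03, and Ciita was at 0.03. Of 33 interferon response genes in the fit, 17 rose and 2 fell in Z/Z TECs, with a median of 0.68 where that of the members was -0.45. Gbp2 rose by 1.98 ± 0.20, Rtp4 by 1.53 ± 0.14, Stat2 by 1.36 ± 0.14 and Ifi47 by 1.34 ± 0.15 (adjusted p 0.00714 to 0.00828). Irf1, a transcription factor of class I genes, was 337 and 371 CPM in WT TECs and 784 and 798 in Z/Z (1.16 ± 0.14, adjusted p = 0.00883). In cluster 8 alone, 0 of 33 interferon genes were called by edgeR, and their median was -0.01. An unadjusted p under 0.05 was found for 10 of them, beside 1669 of all 12793 genes.

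Fewer genes of these lists passed the test in the other lineages. In fibroblasts 1 of 33 interferon genes was higher (Isg15, 1.20 ± 0.20, adjusted p = 0.0130) and in endothelial cells 5 were, among them Isg15 (1.52 ± 0.26), Rsad2 (1.22), Ifit3 (1.37) and Irf7 (1.35). Isg15 in endothelial cells was 416 and 273 CPM in WT against 828 and 1226 in Z/Z. No gene of the class I list or of the proteasome lists was called in either lineage. In endothelial cells 2 of the 8 class II genes in the fit fell, H2-Aa (-1.12 ± 0.26) and Ciita (-3.47 ± 0.78), the latter on 4 to 8 UMIs per library.

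**Figure D5:**
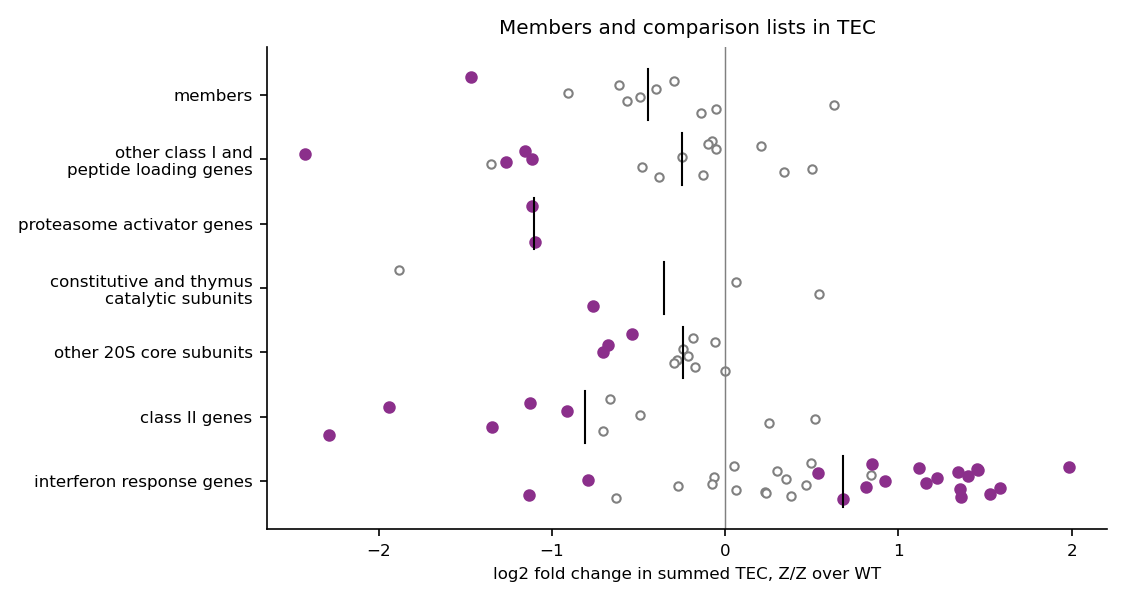
Log2 fold change in summed TECs, Z/Z over WT, of each member and of each gene of 6 comparison lists, 1 point per gene, filled where the edgeR adjusted p was under 0.05, with the median of each list as a black bar. The bars lie at -0.45 for the members, -1.11 for the activator genes, -0.81 for class II genes and 0.68 for interferon response genes.

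Over the 12 sums (4 libraries by 3 lineages), the members did not follow each other equally. The correlation of a member's log2 level with the mean of the other members was highest for Psmb8 (Pearson r = 0.92), H2-K1 (0.90) and Nlrc5 (0.85). It was 0.81 for Tap2, 0.71 for H2-D1, 0.69 for Tap1 and 0.59 for Psmb9, and lowest for B2m (0.47), Psmb10 (0.37) and Tapbp (0.31). The 5 genes outside the list most like the members' mean were Lrrc36 (0.97), Edn1 (0.96), Cdipt (0.96), Prr13 (0.95) and Tnfaip8l1 (0.95). The 12 points share libraries, depth and lineages, so these values describe the pattern and carry no test.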

How the data were processed

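Single cells of CD45-depleted thymic stroma were measured in 4 libraries of droplet 3′ RNA-seq. The deposited matrices hold UMI counts per gene and cell, made by the authors with Cell Ranger 7.0.1 (7.01 in the submitters' processing notes) on mm10, and the deposited summaries give saturation as a percent (65.2% to 95.2%). The strand setting of the counting is not stated in the labels or methods.

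Cells with more than 1000 genes and under 20% mitochondrial UMIs were kept (10245 of 13981), and the 3.9% with the highest Scrublet scores in each library (402 cells) were removed as doublets, since its own threshold marked 97. Clusters (scanpy 1.11.5, leidenalg 0.10.2, 3500 variable genes, 35 components, 20 neighbours, resolution 1) were built without the members and list genes and named from markers, with naming thresholds set after the data were seen. UMIs were summed per library and lineage and tested with edgeR 4.0.16 (quasi-likelihood, TMM, filterByExpr, Benjamini-Hochberg over all genes tested, threshold 0.05) in R 4.3.3, with DESeq2 1.42.0 as an alternative. The SE is the log2 fold change over the square root of F. Scripts were tested on simulated data. Deviations from the genotype means did not go together by replicate number, with correlations of -0.12 to -0.23. With 2 libraries per genotype, crossing the numbers only turns the sign, so this cannot show that the libraries are unpaired.

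Members and lists were chosen with earlier results of these data known. All members were named, with at most 4 genes of a list by lowest p and known partners. Nothing in the labels says the pools came from separate days, so p-values measure the spread between these libraries, and counts carry counting error of their own.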

Additional observations from a re-analysis of the deposited data

Results flagged for a closer look

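The effect of genotype on 4 members differed between lineages by the interaction test, with 2 libraries per genotype. For endothelial cells against TECs the difference in log2 fold change was 1.42 for B2m, 2.03 for Psmb10, 1.39 for Psmb8 and 1.18 for Psmb9. For fibroblasts against TECs it was 1.09 for B2m, 1.49 for Psmb10 and 0.83 for Psmb8. The Psmb9 difference no longer passed when any 1 of the 4 libraries was left out. In each case the Z/Z value lay lower relative to WT in TECs than in the other lineage. The makeup of the TEC sums and blood cell markers moved with genotype, and their part in these differences was not tested.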

How the results depend on the processing

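B2m in TECs kept its direction and its side of the threshold in 18 of 18 alternatives. The number of members called in TECs, 1 in the main test, was 3 without the filter on low counts, 4 in DESeq2, 5 with thinned cells and 2 without aaTEC2-like cells. The number of all genes called in TECs in those settings is not given here. All genes called went from 4254 to 594 without cluster 8. In endothelial cells 1 member passed with no filter, and in cluster 8 DESeq2 called 1. The cause of these changes was not tested. With the replicate number as a block, all genes called were 2591 in TECs, 425 in fibroblasts and 372 in endothelial cells, against 4254, 433 and 238 without it, and no call of a member changed. With the Z/Z numbers crossed in that block, 3 members passed in TECs, 0 in fibroblasts and 1 in endothelial cells, and all genes called were 3786, 1188 and 614.

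All genes called also moved with the filter and the depth per cell. Without the filter they were 1344 in fibroblasts and 744 in endothelial cells, and for the difference in genotype effect 1863 between endothelial cells and TECs and 420 between endothelial cells and fibroblasts. With thinned cells they were 222 in fibroblasts and 69 in endothelial cells, 714 and 1267 for the effects of endothelial cells and fibroblasts against TECs, and 4673 and 4945 for the levels in the same pairs, with 4 members called between fibroblasts and TECs. Cells with more than 2000 genes gave 123 in endothelial cells, and subtracting free RNA gave 13 for the effects of endothelial cells against fibroblasts.

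Some log2 values changed sign. In TECs these were Psmb8 (0.18) and Tapbp (0.13) without cluster 8 and Tap2 with no filter (0.0099). In fibroblasts they were H2-K1 with no filter (0.0029), H2-D1 with free RNA subtracted (-0.0056) and thinned (-0.036), Psmb9 with free RNA subtracted (-0.0045), thinned (-0.21) and with shared barcodes kept once (-0.0051), and Nlrc5 thinned (0.055). In endothelial cells they were Tap1 with the replicate block (-0.031), free RNA subtracted (-0.0051), thinned (-0.29), under 10% mitochondrial UMIs (-0.0078) and no doublet removal (-0.0085), and Tapbp with no filter (0.050) and thinned (0.10). Of the differences in effect between endothelial cells and fibroblasts, H2-K1 turned with RLE factors (-0.072) and no filter (-0.023), Tap2 with RLE factors (-0.12), no filter (-0.066), free RNA subtracted (-0.020) and thinned (-0.00067), and Nlrc5 thinned (-0.13). Against TECs, Tap2 turned thinned in endothelial cells (0.041) and in fibroblasts with RLE factors (0.017) and thinned (0.041), and Tap1 in fibroblasts thinned (0.36). The level of B2m in fibroblasts against TECs turned with RLE factors (-0.018) and the endothelial Psmb9 to Psmb6 ratio thinned (0.038).

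Leaving out each library in turn gave 1 to 2 members and 756 to 4051 genes called in TECs, 0 to 556 genes in fibroblasts and 89 to 480 in endothelial cells. The count in TECs fell to 756 when Z/Z 1 was left out and to 1639 when Z/Z 2 was, and in fibroblasts it was 0 in both cases. In endothelial cells it was 89 without Z/Z 1, 131 without Z/Z 2, 459 without WT 1 and 480 without WT 2. The differences in effect gave 1 to 3 members and 350 to 1007 genes between endothelial cells and TECs, 0 to 4 and 712 to 2051 between fibroblasts and TECs, and 8 to 83 genes between endothelial cells and fibroblasts. Lineage levels gave 3 to 6 members between endothelial cells and TECs, 2 to 5 between fibroblasts and TECs, and 4067 to 6313 genes between endothelial cells and fibroblasts. Among log2 values that changed sign, Tap2 ran from -0.12 to 0.023 and Tapbp from -0.33 to 0.063 in TECs. In fibroblasts H2-K1 ran from -0.12 to 0.044, H2-D1 from -0.20 to 0.22 and Psmb9 from -0.10 to 0.18. In endothelial cells H2-K1 ran from -0.32 to 0.074, Tap1 from -0.33 to 0.40 and Tapbp from -0.21 to 0.063. In cluster 8 H2-K1 ran from -0.42 to 0.10, H2-D1 from -0.19 to 0.22, Psmb10 from -0.55 to 0.31 and Tap1 from -0.49 to 0.29. Of the differences in effect, Tap1 ran from -0.57 to 0.026 and Tap2 from -0.19 to 0.20 for endothelial cells against TECs. H2-K1 ran from -0.19 to 0.25, Tap1 from -0.48 to 0.13 and Tap2 from -0.19 to 0.29 for endothelial cells against fibroblasts. Tap1 ran from -0.41 to 0.0013, Tap2 from -0.18 to 0.063 and Nlrc5 from -0.060 to 0.38 for fibroblasts against TECs. The level of B2m in fibroblasts against TECs ran from -0.15 to 0.29, and the TEC ratio of Psmb10 to Psmb7 from -0.59 to 0.17.

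The crossed block, the sums without cluster 0 or 8, all alternatives for the difference in effect, the ratios and cluster 8 were added after seeing the data. WT 2, with 104 TECs and 25 endothelial cells, limits the depth.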
